A study of Mus musculus with 16 samples.

Results

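The genes described here are 10 vascular genes of the mouse left ventricle: the growth factors and ligands Vegfa, Vegfb, Apln and Angpt1, the receptors Kdr, Flt1 and Tek, the endothelial surface and junction markers Pecam1 and Cdh5, and the hypoxia-responsive transcription factor subunit Hif1a. They were chosen with earlier results of these data known. The rule itself goes by name and takes every probe set for which the array annotation gave exactly 1 gene symbol equal to one of these names. A probe set is a group of short probes on the array that together give 1 signal, and it can read more than 1 transcript. The rule found 17 probe sets for 10 of the 12393 genes that had such a probe set. Kdr, Tek, Vegfb, Angpt1, Pecam1 and Apln had 1 probe set each, Vegfa and Cdh5 had 2, Flt1 had 3 and Hif1a had 4. Of the 17 probe sets, 14 were above the signal limit used for testing, a mean of log2(signal + 16) that corresponds to a signal of 130.8, so 9 of the 10 genes were tested. Angpt1, whose only probe set was below the limit, and 2 of the Hif1a probe sets are described apart.

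The samples were left ventricles of C57BL/6J mice aged 12 to 14 weeks, taken 14 days after surgery and measured on 1 array each. The 4 groups of 4 arrays were male TAC, male sham, female TAC and female sham. TAC, transverse aortic constriction, narrows the aortic arch, so that the left ventricle pumps against a higher pressure, and sham-operated mice are the control. Per the labels, ketamine with isoflurane and later buprenorphine were given for the TAC operation, and the labels do not say whether sham mice received the same. The labels give no pressure gradient or heart weight for the single mice, so the load that each ventricle carried is not known here.

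Vegfa and Vegfb are secreted ligands of the vascular endothelial growth factor (VEGF) family. Kdr (VEGFR2) is the main signalling receptor for Vegfa on endothelial cells, while Flt1 (VEGFR1) binds Vegfa and Vegfb and, in its soluble form, holds Vegfa away from Kdr. Angpt1 activates the endothelial receptor Tek (Tie2), which keeps vessels quiescent, and Apln acts through its receptor Aplnr on vessels and the heart. In low oxygen, Hif1a protein escapes the prolyl hydroxylases, pairs with Arnt and switches on genes that include Vegfa. This control acts on the protein, so that the amount of Hif1a RNA is not a readout of it.

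The factor that Hif1a forms binds the core of the hypoxia response element, whose letters are ACGTG or GCGTG, and promoter sequence is shown here for the 3 genes around which the results below turn. RefSeq sequence of build GRCm38.p6, from 250 bases before to 50 bases after each start, was matched by symbol for 7 of the 10 genes, in 8 promoters because Vegfa had 2. Angpt1, Pecam1 and Cdh5 were not matched. The strand read is the strand of the gene, and capitals mark each match to ACGTG or GCGTG on either strand. The Hif1a promoter at chr12:73907617-73907916 on the plus strand held 3 matches, 2 of which overlap as the palindrome CACGTG. The Flt1 promoter at chr5:147725962-147726261 on the minus strand held 1. The Vegfa promoter at chr17:46032328-46032627 on the minus strand held 0, and the Vegfa promoter at chr17:46025114-46025413, also on the minus strand, held 2. The latter belongs to a start inside the Vegfa gene, which spans 46016993 to 46032377. The windows of Hif1a and Flt1 also lie inside their gene spans, 73901324 to 73947554 and 147561604 to 147726438. Sequence at the outer start of these spans was not read. Sequence more than 250 bases before a start was not read, so the 0 does not cover sites further upstream.
Hif1a: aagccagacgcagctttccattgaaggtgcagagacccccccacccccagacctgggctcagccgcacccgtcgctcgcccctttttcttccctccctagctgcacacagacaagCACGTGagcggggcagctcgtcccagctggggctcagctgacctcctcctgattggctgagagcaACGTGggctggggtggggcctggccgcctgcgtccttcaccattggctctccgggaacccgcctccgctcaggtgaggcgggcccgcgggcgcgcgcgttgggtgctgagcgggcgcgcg
Flt1: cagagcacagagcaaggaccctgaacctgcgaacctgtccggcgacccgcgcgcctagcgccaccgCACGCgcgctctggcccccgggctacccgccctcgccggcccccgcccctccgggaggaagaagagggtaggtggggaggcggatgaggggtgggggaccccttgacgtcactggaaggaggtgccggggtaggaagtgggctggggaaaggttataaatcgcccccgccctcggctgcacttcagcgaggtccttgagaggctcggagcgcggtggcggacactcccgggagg
Vegfa, chr17:46032328-46032627: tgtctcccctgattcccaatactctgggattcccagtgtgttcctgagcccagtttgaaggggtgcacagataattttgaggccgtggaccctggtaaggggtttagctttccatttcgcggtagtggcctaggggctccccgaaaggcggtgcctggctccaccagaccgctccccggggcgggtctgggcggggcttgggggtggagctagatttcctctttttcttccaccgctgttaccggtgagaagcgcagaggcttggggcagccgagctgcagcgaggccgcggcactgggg
Vegfa, chr17:46025114-46025413: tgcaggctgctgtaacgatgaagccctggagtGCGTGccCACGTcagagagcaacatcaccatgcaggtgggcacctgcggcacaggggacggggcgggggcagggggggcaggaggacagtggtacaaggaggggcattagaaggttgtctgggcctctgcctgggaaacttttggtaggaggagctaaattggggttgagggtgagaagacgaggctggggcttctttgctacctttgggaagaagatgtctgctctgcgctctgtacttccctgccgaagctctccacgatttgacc
Matches were present in promoters of 5 of the 7 genes, the others being those of Vegfb and Kdr with 2 each, and Tek and Apln had 0. Vegfa is counted for the start inside the gene only. Of all 32851 promoters of the same length, 43.8% held at least 1 match and 8.9% held at least 3. A match is a description of the letters and not a bound site.

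All arrays had been scaled by the authors to 1 mean: the mean without the outer 2% at either end was 500.21 to 500.25 on every one. Cardiomyocyte transcripts were present throughout, with Myh6, the main adult myosin heavy chain of the mouse ventricle, between 33693.0 and 58320.8 on the 16 arrays. A pair of array controls differed between the operations. The log2 signal of the 18S 5′ probe set averaged 10.3 ± 1.91 in male TAC and 13.3 ± 0.50 in male sham mice, and 10.2 ± 0.61 in female TAC and 11.9 ± 0.92 in female sham mice (SD, n = 4 each), with male TAC replicate 5 at 13.2 apart from its group. The Gapdh 3′ to 5′ ratio, a measure of RNA integrity, averaged 1.08 ± 0.07 in male TAC and 0.885 ± 0.039 in male sham mice, and 0.989 ± 0.030 in female TAC and 0.865 ± 0.058 in female sham mice. Differences below are given in log2(signal + 16), TAC minus sham, from limma's moderated test over 13576 probe sets with Benjamini-Hochberg adjustment, and "rose" and "fell" mean an adjusted p below 0.05.

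Of the 9 tested genes, only Hif1a passed the test on its leading probe set, the one with the highest mean over the 16 arrays. Averaged over the sexes, Hif1a rose on that probe set by 0.54 on the log2 scale, a fold of 1.45. This call was lost with the replicate block or the Gapdh ratio in the model. The other Hif1a probe sets did not rise, and 1416035_at had 0.10 (adjusted p = 0.644). Below the signal limit, 1431981_at had 0.13 and 1448183_a_at had -2.17 (adjusted p = 0.000127). On their leading probe sets, the VEGF ligands Vegfa and Vegfb, the receptors Kdr, Flt1 and Tek, the endothelial markers Pecam1 and Cdh5, and the peptide Apln had differences between -0.31 and 0.06. In males 1 of 9 genes passed, against 17.8% of all probe sets (8.07% higher and 9.77% lower). In females 0 of 9 passed, against 15.1% (6.46% higher and 8.6% lower), and none of the 9 had an unadjusted p below 0.05. Averaged over the sexes 1 of 9 passed, against 28.7% (12.9% higher and 15.8% lower). These shares count every probe set of a gene. Over the leading probe sets alone, 1 for each of 8272 genes, 15.9% passed in males, 13.1% in females and 26.5% averaged. With each array centred on its median instead, the split over all probe sets was 2359 higher of 3909 called, against 1747 higher of 3890 with the authors' scaling. The median difference of the 9 genes was -0.15 in males, -0.07 in females and -0.07 averaged. In each comparison the median was -0.03 over all probe sets and -0.01 over the leading ones. The heart is measured here in bulk, so that fewer cells of a type and less RNA per cell cannot be told apart.

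**Figure D1:**
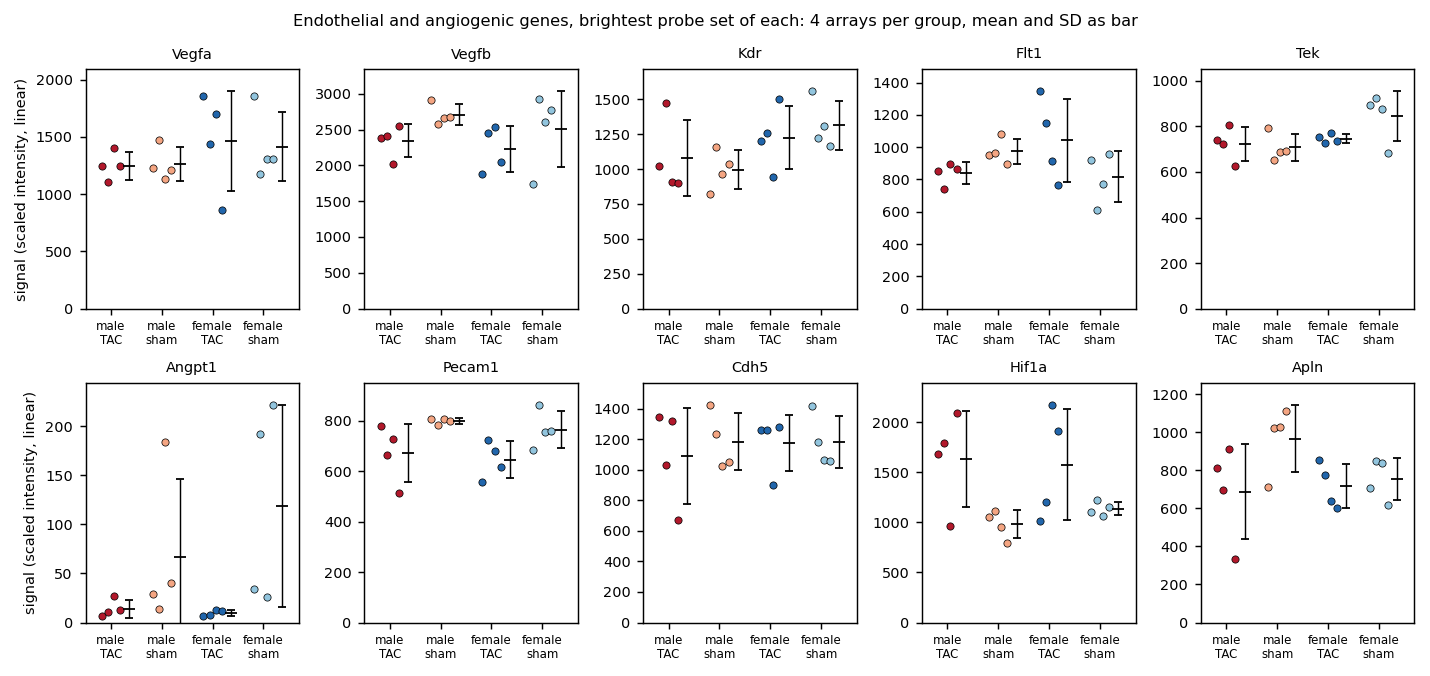
Signal (scaled intensity, linear axis from 0) of the leading probe set of each of the 10 genes, 1 point per array and 4 arrays per group, with the group mean and SD as a bar beside the points. Hif1a was higher in 3 of 4 male TAC arrays than in all male sham arrays, Pecam1 was lower in all male TAC than in all male sham arrays, and the groups of Vegfa, Kdr and Cdh5 overlapped in both sexes.

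Vegfa, the main angiogenic ligand of the VEGF family, had 2 probe sets that gave different values. On the leading probe set, 1420909_at, its signal was 1244.0, 1103.5, 1399.6 and 1241.6 in male TAC mice, against 1227.4, 1476.4, 1135.3 and 1207.9 in male sham mice. In females it was 1857.5, 1436.8, 1696.7 and 859.7 after TAC, against 1860.0, 1179.6, 1307.0 and 1309.5 after sham surgery. The groups overlapped in both sexes, and the female TAC group spanned the widest range. The averaged difference was -0.00 ± 0.13 (SE), with a 95% interval of -0.28 to 0.28 and an adjusted p of 0.998. On probe set 1451959_a_at the signal averaged 463 ± 174 in male TAC and 696 ± 128 in male sham mice, and 506 ± 180 in female TAC and 619 ± 141 in female sham mice (SD, n = 4 each). The difference there was -0.63 ± 0.26 in males (adjusted p = 0.109), -0.33 in females (adjusted p = 0.459) and -0.48 ± 0.19 averaged (adjusted p = 0.0598), so this probe set was close to the threshold without passing it. It passed, at an adjusted p of 0.0242 to 0.0466, without male TAC replicate 2, female TAC replicate 2, female TAC replicate 3 or female sham replicate 4, and with the dimmest 60% of probe sets left out.

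Vegfb, a ligand of Flt1 that is abundant in heart muscle, was somewhat lower after TAC in males without passing the test. Its signal was 2384.3, 2410.7, 2015.3 and 2554.9 in male TAC mice, against 2914.4, 2583.1, 2661.0 and 2673.7 in male sham mice. In females it was 1883.1, 2447.1, 2538.8 and 2041.7 after TAC, against 1734.3, 2921.7, 2602.9 and 2767.2 after sham surgery. All male TAC arrays were below all male sham arrays, and the female groups overlapped because 1 sham array was the lowest of the 8. The difference was -0.21 ± 0.14 in males and -0.15 ± 0.14 in females, and its average of -0.18 ± 0.10 had a 95% interval of -0.39 to 0.03 and did not pass (adjusted p = 0.195). Without female sham replicate 1, the low array, the average was -0.27 and passed.

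Apln encodes apelin, a peptide that acts on endothelium and heart muscle. Its signal was 810.7, 696.6, 909.1 and 334.4 in male TAC mice, against 709.8, 1021.6, 1024.5 and 1109.3 in male sham mice. In females it was 852.7, 773.5, 636.8 and 603.2 after TAC, against 707.5, 847.9, 838.5 and 616.6 after sham surgery. The lowest value of all was that of male TAC replicate 5, the array that also stood apart in 18S signal. The male difference of -0.55 ± 0.23 did not pass (adjusted p = 0.113), nor did the female one of -0.07 ± 0.23 or the average of -0.31 ± 0.16 (adjusted p = 0.170). Without male TAC replicate 5 the male difference was -0.25 (adjusted p = 0.397), and without male TAC replicate 4 it was -0.71 and passed. With the 18S signal in the model the male difference of -1.28 and the average of -0.88 passed.

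Angpt1, the ligand that activates Tek, was below the signal limit. Its signal was 6.3, 10.4, 26.9 and 12.4 in male TAC mice, against 29.4, 14.0, 184.0 and 40.1 in male sham mice. In females it was 6.7, 7.2, 12.7 and 11.9 after TAC, against 34.1, 192.2, 26.1 and 221.4 after sham surgery. The female groups did not overlap, the male groups did, and 3 sham arrays with signals of 184.0 or more were the only ones above the limit of 130.8. In a fit of the model to all 22626 probe sets, the difference was -1.99 ± 0.57 in females (adjusted p = 0.0339), -1.10 ± 0.57 in males (adjusted p = 0.277) and -1.55 ± 0.40 averaged (adjusted p = 0.0101). The female value no longer passed without any one of the 4 female TAC arrays or without female sham replicate 2 or 4 (adjusted p = 0.0622 to 0.118), nor with no intensity trend, 64 added, the replicate block, the 18S signal or the Gapdh ratio (adjusted p = 0.0593 to 0.278). With no detection call used here, signals this low cannot be told from those of a gene that is not expressed. The averaged difference was -2.33 with 1 in place of 16 added before the log and -0.85 with 64.

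The receptors of the VEGF system gave no change on their leading probe sets. Kdr had 1020.7, 1475.9, 907.9 and 901.0 in male TAC mice, against 821.0, 1160.0, 963.2 and 1039.6 in male sham mice. In females Kdr had 1200.0, 1258.0, 946.1 and 1498.6 after TAC, against 1558.6, 1220.3, 1310.0 and 1161.8 after sham surgery. The groups overlapped in both sexes, the differences of 0.09 in males and -0.11 in females had opposite signs, and the average of -0.01 ± 0.12 had a 95% interval of -0.26 to 0.24 (adjusted p = 0.968). Tek, the angiopoietin receptor, had 741.1, 721.2, 807.3 and 626.4 in male TAC mice, against 794.8, 653.2, 688.3 and 693.5 in male sham mice. In females Tek had 755.1, 725.2, 770.2 and 737.2 after TAC, against 892.9, 926.3, 877.9 and 682.0 after sham surgery. Of the 4 female sham arrays 3 were above all female TAC arrays and the remaining one was below them all. The averaged difference of -0.07 ± 0.09 had a 95% interval of -0.26 to 0.12 and did not pass (adjusted p = 0.628).

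Flt1, which binds both Vegfa and Vegfb, was read by 3 probe sets, which were all lower after TAC in males and differed in sign in females, with none of these differences past the test within a sex. The leading probe set, 1419300_at, had 854.8, 738.5, 895.3 and 863.7 in male TAC mice, against 951.9, 963.7, 1084.1 and 894.6 in male sham mice. In females it had 1347.8, 1148.5, 917.1 and 763.5 after TAC, against 920.7, 611.4, 774.8 and 960.7 after sham surgery. The difference was -0.21 ± 0.17 in males and 0.34 ± 0.17 in females (adjusted p = 0.430 and 0.194), 0.06 ± 0.12 averaged (adjusted p = 0.741), and probe set 1451756_at gave -0.20 in males and 0.42 in females. The female response minus the male response was 0.55 ± 0.24 on the leading probe set, with an unadjusted p of 0.0302 and an adjusted p of 0.734, and 0.62 ± 0.28 on 1451756_at (adjusted p = 0.741). That opposite sign between the sexes was therefore not past the test.

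The remaining Flt1 probe set, 1454037_a_at, was dimmer and fell. Its signal was 166.6, 254.9, 215.6 and 233.7 in male TAC mice, against 334.4, 333.5, 336.0 and 334.7 in male sham mice. In females it was 192.3, 163.1, 282.1 and 153.0 after TAC, against 295.0, 224.9, 347.6 and 269.2 after sham surgery. All male TAC arrays were below all male sham arrays, and in females 3 of 4 TAC arrays were below every sham array. The averaged difference was -0.56 ± 0.15, a 1.47-fold lower value (adjusted p = 0.00783), with -0.60 in males (adjusted p = 0.0545) and -0.51 in females (adjusted p = 0.114). Which Flt1 transcripts each probe set reads was not examined, so whether the probe sets differ by transcript form was not tested. With the 18S signal or the Gapdh ratio in the model the average was -0.45 (adjusted p = 0.225) or -0.42 (adjusted p = 0.499) and no longer passed.

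**Figure D2:**
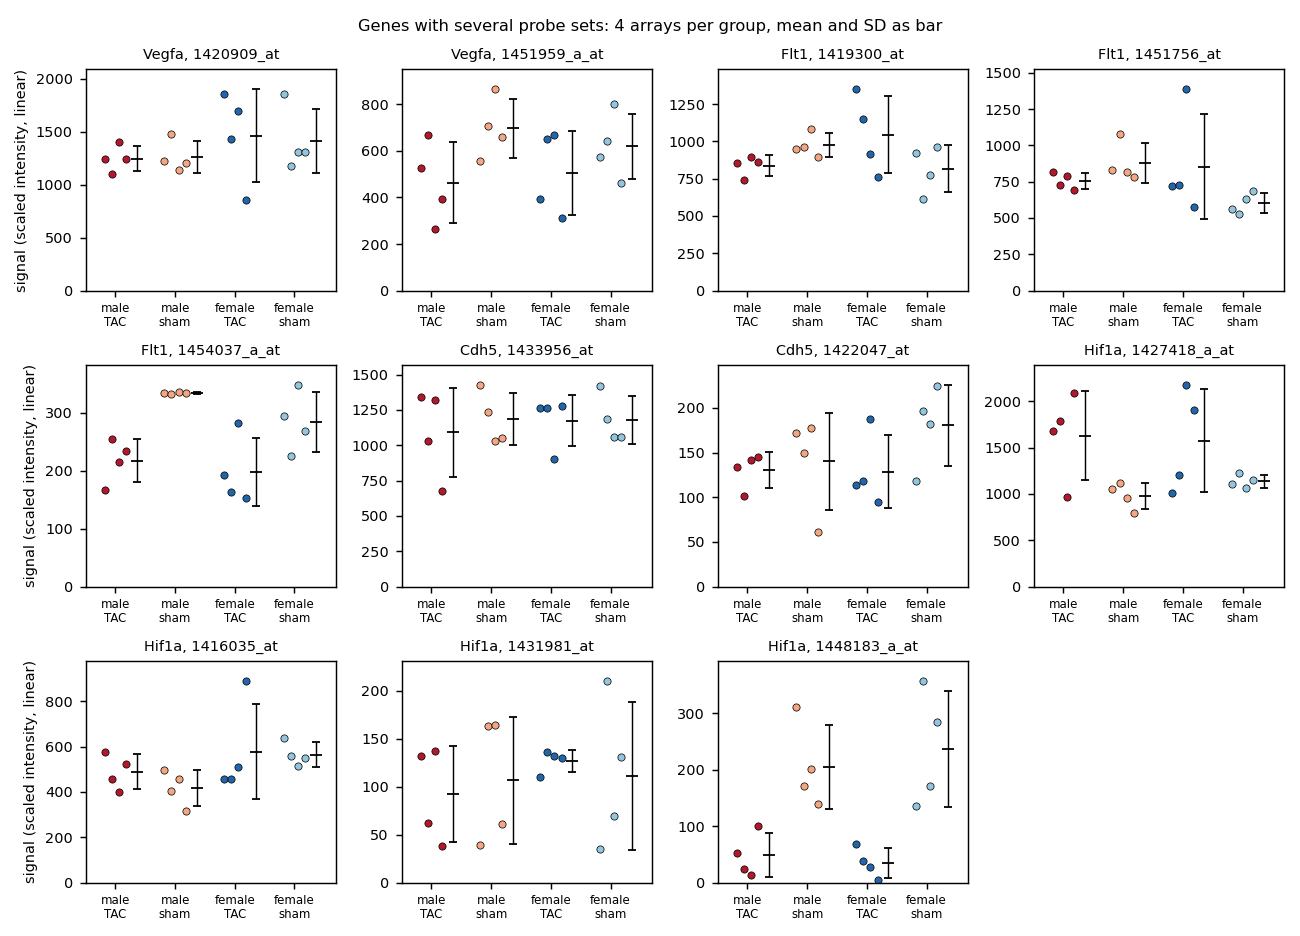
Signal (scaled intensity, linear axis from 0) of all 11 probe sets of Vegfa, Flt1, Cdh5 and Hif1a, 1 point per array and 4 arrays per group, with the group mean and SD as a bar. Flt1 1454037_a_at was lower after TAC in both sexes while the other 2 Flt1 probe sets had higher means after TAC in females only, and Hif1a 1448183_a_at was lower after TAC while Hif1a 1427418_a_at was higher.

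Pecam1 (CD31) and Cdh5 (VE-cadherin), adhesion molecules of the contacts between endothelial cells, are common markers of the endothelium. Pecam1 had 779.4, 664.7, 725.8 and 512.3 in male TAC mice, against 805.0, 781.0, 807.7 and 799.5 in male sham mice. In females it had 556.3, 723.3, 680.9 and 617.1 after TAC, against 681.9, 861.9, 754.5 and 759.1 after sham surgery. The male groups did not overlap and the female groups did. Its differences of -0.26 ± 0.14 in males and -0.24 ± 0.14 in females were alike in size, and the average of -0.25 ± 0.10, with a 95% interval of -0.46 to -0.05, was just short of the threshold (adjusted p = 0.0607). Without male TAC replicate 5, the lowest Pecam1 array, the average was -0.19 (adjusted p = 0.130). It passed, at -0.29 to -0.28, without male TAC replicate 1, female TAC replicate 2 or female sham replicate 1, and also with the dimmest 60% of probe sets left out.

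Cdh5 gave no such difference. Its leading probe set, 1433956_at, had 1344.3, 1027.9, 1321.2 and 673.0 in male TAC mice, against 1423.1, 1233.4, 1027.0 and 1052.7 in male sham mice. In females it had 1260.4, 1259.9, 899.7 and 1279.2 after TAC, against 1417.2, 1182.5, 1061.2 and 1056.5 after sham surgery. The groups overlapped in both sexes, with male TAC replicate 5 again the lowest array, and the averaged difference was -0.08 ± 0.13, with a 95% interval of -0.36 to 0.20 (adjusted p = 0.695), or 0.02 without that array (adjusted p = 0.902). The dimmer Cdh5 probe set, 1422047_at, ranged between 61.0 and 224.5 and had an averaged difference of -0.23 ± 0.24 (adjusted p = 0.508).

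**Figure D3:**
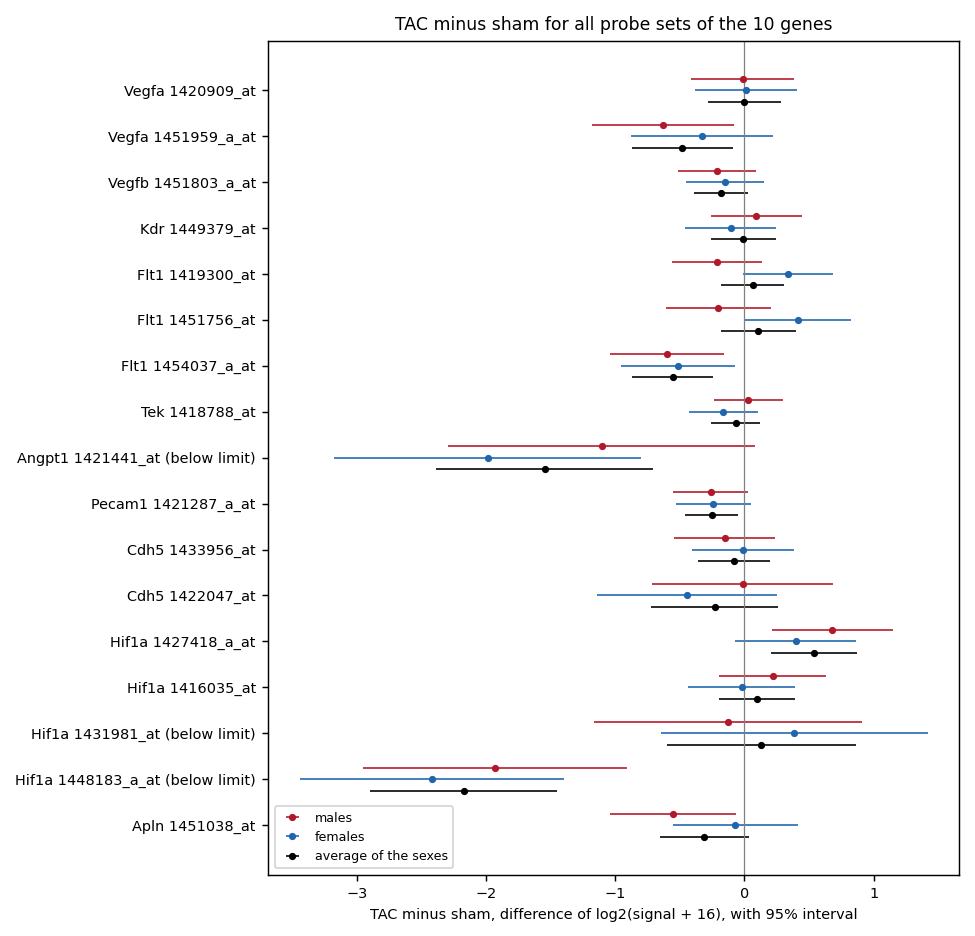
TAC minus sham for all 17 probe sets, as a difference of log2(signal + 16) with its 95% interval, in males (red), in females (blue) and averaged over the sexes (black). Hif1a 1427418_a_at lay to the right of 0 at 0.54 on average, Flt1 1454037_a_at to the left at -0.56, and the intervals of Vegfa 1420909_at, Kdr, Tek and Cdh5 all spanned 0. Probe sets marked as below the limit come from the model on all 22626 probe sets.

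Hif1a encodes the oxygen-regulated subunit of hypoxia-inducible factor 1. On its leading probe set, 1427418_a_at, the signal was 1679.7, 1788.1, 962.8 and 2088.4 in male TAC mice, against 1057.2, 1116.1, 957.7 and 793.7 in male sham mice. In females it was 1013.6, 1200.7, 2171.0 and 1907.1 after TAC, against 1103.8, 1223.2, 1066.6 and 1152.7 after sham surgery. In each sex the TAC mice were uneven: 3 of 4 male TAC and 2 of 4 female TAC arrays were above every sham array of their sex, and the other arrays lay within or below the sham range. The difference was 0.68 ± 0.22 in males (adjusted p = 0.0407), 0.40 ± 0.22 in females (adjusted p = 0.265) and 0.54 ± 0.16 averaged (adjusted p = 0.0144), and the female response minus the male one was -0.28 ± 0.32 (adjusted p = 0.913). With any single array left out the average stayed between 0.45 and 0.65 and passed, but it no longer passed with the replicate block (0.40, adjusted p = 0.0644) or with the Gapdh ratio in the model (0.29, adjusted p = 0.684). Without male TAC replicate 5 it was 0.47 (adjusted p = 0.0329). The male call was lost without any one of male TAC replicates 1, 2 and 5 or male sham replicates 1, 3 and 4, at adjusted p values of 0.0562 to 0.127.

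The other Hif1a probe sets did not move with the leading one. Probe set 1416035_at had 575.1, 456.4, 398.7 and 524.1 in male TAC mice, against 497.8, 405.2, 458.6 and 315.1 in male sham mice, and averaged 578 ± 208 in female TAC and 565 ± 53 in female sham mice (SD, n = 4 each). Its averaged difference of 0.10 ± 0.14 had a 95% interval of -0.19 to 0.39 (adjusted p = 0.644). Probe set 1448183_a_at, below the signal limit, had 52.9, 24.4, 14.2 and 101.2 in male TAC mice, against 310.7, 171.5, 201.2 and 139.1 in male sham mice. In females it had 68.2, 37.6, 26.9 and 4.0 after TAC, against 135.0, 356.9, 171.0 and 284.8 after sham surgery. The groups did not overlap in either sex, and the averaged difference in the model on all probe sets was -2.17 ± 0.35 (adjusted p = 0.000127), opposite in sign to that of the leading probe set. All 8 TAC signals were below the limit, so the size depends on the constant added before the log, at -2.77 with 1 and -1.44 with 64. The last one, 1431981_at, also below the limit, ranged between 34.7 and 210.0 with an averaged difference of 0.13 ± 0.35 (adjusted p = 0.867). The Hif1a probe sets thus differed in sign, and which transcripts each one reads was not examined.

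Among the other genes of the HIF system, 7 with a tested probe set, 1 rose and 3 fell when averaged over the sexes, against 28.7% of all probe sets called, with a median of -0.34. The count of 4 calls was 1 with the 18S signal and 0 with the Gapdh ratio in the model. Epas1, which encodes the HIF-2 alpha subunit prominent in endothelium, had 455.1, 325.8, 547.3 and 425.4 in male TAC mice, against 1001.9, 844.2, 927.0 and 1027.7 in male sham mice. In females it had 772.8, 504.1, 522.5 and 526.8 after TAC, against 547.0, 721.6, 734.5 and 733.1 after sham surgery. The male groups were far apart and in females 3 of 4 TAC arrays were below every sham array and the remaining one was above them all. The Epas1 difference was -1.11 ± 0.17 in males (adjusted p = 0.000129), -0.24 ± 0.17 in females (adjusted p = 0.387) and -0.67 ± 0.12 averaged (adjusted p = 0.000246), and the difference between the sexes of 0.87 ± 0.24 did not pass over all probe sets (adjusted p = 0.512). Egln1, the main prolyl hydroxylase that marks HIF subunits for degradation, fell by 0.34 (adjusted p = 0.000414), and by 0.52 on a second probe set. Arnt, the partner of both subunits, fell by 0.59 (adjusted p = 0.0383), and Egln3, a hydroxylase that hypoxia itself induces, rose by 0.41 (adjusted p = 0.0290). The Arnt call held in 12 of 27 alternative settings and the Egln3 call in 19 of 28.

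Of 13 tested genes known as HIF-1 targets, 5 rose and 1 fell, with a median of 0.13. Of all probe sets 28.7% were called in this averaged comparison, and of the leading ones 26.5%. The 6 calls were 6 with the 18S signal and 1 with the Gapdh ratio in the model. P4ha1, a subunit of collagen prolyl 4-hydroxylase, had 593.8, 463.1, 572.6 and 563.0 in male TAC mice, against 374.7, 344.3, 263.7 and 412.4 in male sham mice. In females it had 590.2, 670.8, 782.9 and 621.8 after TAC, against 279.5, 310.5, 290.0 and 333.6 after sham surgery. Neither sex overlapped, and the averaged rise of 0.87 ± 0.11 (adjusted p = 7.63e-06) passed in all 28 alternative settings, but a second P4ha1 probe set gave -0.08 (adjusted p = 0.827). P4ha2, its sister subunit, rose by 0.53 (adjusted p = 0.000922) and the glucose transporter Slc2a1 by 0.65 (adjusted p = 0.00675). The glycolytic enzyme Pgk1 rose by 0.46 (adjusted p = 0.00782) on a probe set whose _x_at suffix marks probes that may also match other transcripts. The 2 further Slc2a1 probe sets had 0.51 and 0.07, and the 2 further Pgk1 probe sets 0.51 and -0.07, with 1 of the 2 called for each gene. A pair of further calls, named after their values were seen, were the mTOR inhibitor Ddit4, which rose by 0.82 on average (adjusted p = 0.0196), with -0.05 in males (adjusted p = 0.944) and 1.69 in females (adjusted p = 0.00298), and the glycolysis regulator Pfkfb3, which fell by 0.55 (adjusted p = 0.0328). P4ha1, P4ha2 and Slc2a1 serve matrix synthesis or sugar uptake. Of 8 fibroblast markers, 4 rose, among them Postn by 2.52 and Col3a1 by 1.43, and 4 did not pass, with a median of 0.78. The part of fibroblasts in the HIF target values was not tested.

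**Figure D4:**
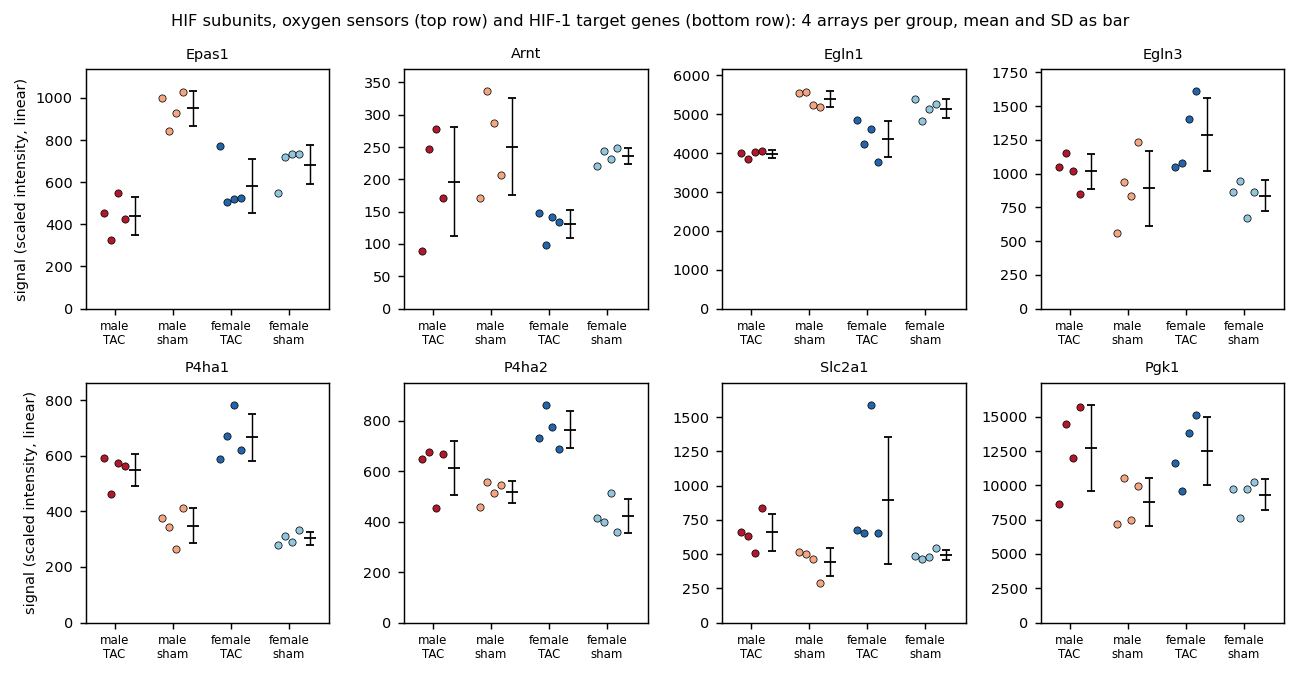
Signal (scaled intensity, linear axis from 0) of 4 genes of the HIF subunit and oxygen sensor list (top row) and 4 HIF-1 target genes (bottom row), 1 point per array and 4 arrays per group, with the group mean and SD as a bar. Epas1 was lower in every male TAC array than in every male sham array, and P4ha1 was higher after TAC with no overlap in either sex.

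The other genes of the VEGF and angiopoietin systems, 4 tested in each list, gave no calls on average on their leading probe sets. In that comparison 28.7% of all probe sets and 26.5% of the leading ones were called, so 0 of 4 says little about a list. In males the shares were 17.8% and 15.9%. Of 4 tested VEGF family genes, with a median of 0.14, none passed: Nrp2, a VEGF co-receptor, had 0.25 (adjusted p = 0.119), Flt4, the receptor of lymphatic endothelium, 0.12 (adjusted p = 0.619), the ligand Vegfd 0.15 (adjusted p = 0.608), and the leading probe set of the co-receptor Nrp1 -0.12 (adjusted p = 0.479), although another Nrp1 probe set fell by 0.56 (adjusted p = 0.000953). Of 4 tested genes of the angiopoietin, Tie and apelin systems, with a median of 0.04, none passed on average: Tie1 had -0.07, the endothelial phosphatase Ptprb 0.15, Angptl4 -0.68 (adjusted p = 0.116) and Aplnr 0.79 (adjusted p = 0.114). Aplnr, the apelin receptor, rose in males by 1.69 ± 0.52 (adjusted p = 0.0276), with 6091.5, 4807.4, 4667.0 and 3009.7 in male TAC mice, against 1789.3, 1048.1, 1409.2 and 1407.7 in male sham mice. In females Aplnr had 4252.8, 3692.6, 472.9 and 7683.6 after TAC, against 3395.1, 3874.2, 2900.6 and 2061.5 after sham surgery. A second Aplnr probe set had 0.27 on average (adjusted p = 0.434). On the leading one the male groups were apart, and 1 female TAC array, replicate 3, was the lowest of all 16. The male Aplnr call held in 10 of 20 alternative settings, and without female TAC replicate 3 the average was 1.21 (adjusted p = 4.19e-05).

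Beyond Pecam1 and Cdh5, 19 other endothelial markers were tested: 5 rose, 3 fell and 11 did not pass, with a median of 0.13. Of all probe sets 28.7% were called in this averaged comparison, and of the leading ones 26.5%. Cldn5, a tight junction protein of endothelium, had 860.6, 1051.4, 899.5 and 992.0 in male TAC mice, against 468.1, 572.3, 484.0 and 623.6 in male sham mice. In females Cldn5 had 512.7, 777.7, 1156.7 and 995.5 after TAC, against 558.9, 652.3, 529.7 and 380.7 after sham surgery. It rose by 0.73 ± 0.14 on average (adjusted p = 0.000690). The surface sialomucin Cd34 rose by 0.57 (adjusted p = 0.000473), with 0.89 in males (adjusted p = 0.000371) and 0.24 in females (adjusted p = 0.332), and the adhesion molecule Icam2 rose by 0.52 (adjusted p = 0.00292). S1pr1, the endothelial receptor for sphingosine 1-phosphate, fell by 0.47 (adjusted p = 0.00326), with -0.83 in males (adjusted p = 0.00111) and -0.12 in females (adjusted p = 0.681). The remaining calls, named after their values were seen, were the clotting factor carrier Vwf at 0.80 (adjusted p = 0.0269), the thrombin receptor Thbd at 0.37 (adjusted p = 0.0288), Clec14a at -0.42 (adjusted p = 0.0121) and the fatty acid carrier Fabp4 at -0.23 (adjusted p = 0.0208). The endothelial markers thus did not all shift one way. The mean log2 level of the 19 genes ranged between 9.94 and 10.14 in male TAC and 9.91 and 9.96 in male sham arrays, and between 10.09 and 10.24 in female TAC and 9.86 and 9.97 in female sham arrays. The count of 8 calls was 2 with the 18S signal and 1 with the Gapdh ratio in the model.

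Genes of Notch signalling, artery and vein identity and sprouting tip cells gave 3 rises and 0 falls of 11 tested, with a median of 0.45, a share of calls near the 28.7% of all probe sets, and the count was 1 with the 18S signal and 0 with the Gapdh ratio in the model. These were the netrin receptor Unc5b at 0.57 (adjusted p = 0.00512), Notch1 at 0.45 (adjusted p = 0.0132) and the arterial ligand Efnb2 at 0.54 (adjusted p = 0.0473), a call that held in 10 of 28 alternative settings, while a second Efnb2 probe set gave -0.28 (adjusted p = 0.394). Of the other angiogenic growth factors, 5 of 9 rose and 1 fell, with a median of 0.96, and the 6 calls were 4 with the 18S signal and 2 with the Gapdh ratio. Ccn2, a matricellular protein also known as CTGF, had 3162.1, 6715.4, 3358.2 and 9819.7 in male TAC mice, against 686.7, 681.4, 681.0 and 883.5 in male sham mice, and rose by 2.57 on average (adjusted p = 5.47e-07). Hbegf, an EGF receptor ligand, rose by 1.52 (adjusted p = 8.98e-07), Igf1 by 1.08 (adjusted p = 2.74e-06) and Ccn1 by 0.96 (adjusted p = 0.0105), and Mdk (1.29) and Fgf1 (-0.28) were the other calls, named after their values were seen. Of 8 endogenous inhibitors of angiogenesis, with a median of 0.03, 1 rose, Serpinf1 (PEDF), by 1.62 (adjusted p = 8.66e-09), with 2203.7, 2568.3, 1863.2 and 2161.1 in male TAC mice, against 450.8, 514.5, 555.6 and 783.0 in male sham mice. Timp3, of the same list, had -0.41 on its leading probe set (adjusted p = 0.185), though it fell on 2 of 3 further ones.

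**Figure D5:**
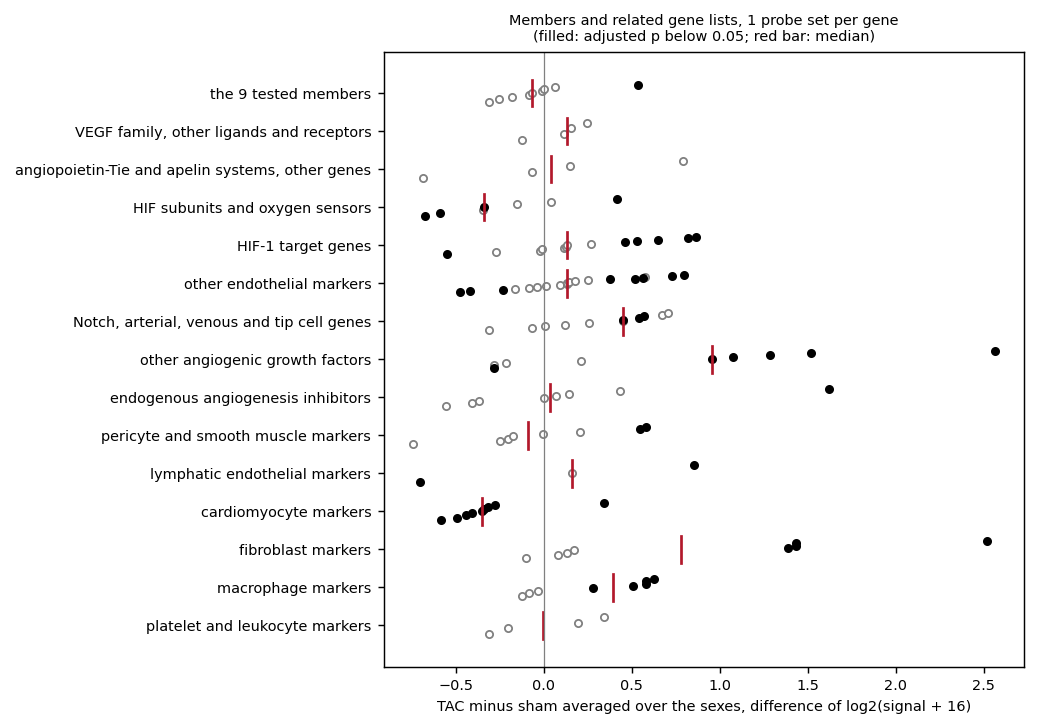
TAC minus sham averaged over the sexes, as a difference of log2(signal + 16), for the 9 tested genes and 14 lists of related genes, 1 point per gene on its leading probe set. Filled points passed an adjusted p of 0.05 and a red bar marks each list's median, which was -0.07 for the 9 genes, 0.13 for the other endothelial markers and 0.96 for the other angiogenic growth factors.

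Markers of other cells of the ventricle moved between the operations, while 28.7% of all probe sets were called in the averaged comparison. Of 9 cardiomyocyte markers 8 fell and 1 rose, with a median of -0.35 and with Pln, the inhibitor of the calcium pump, at -0.58. Further Pln probe sets had -1.09 to -0.40 and further Atp2a2 ones -1.42 to -0.31. Further probe sets had -1.26 for Ryr2, -1.30 for Myh6 and -0.11 for Tnnt2 (adjusted p = 0.193). The 9 calls were 3 with the 18S signal and 1 with the Gapdh ratio in the model, the 4 fibroblast calls below 4 and 2, and the 5 macrophage calls 2 and 1. Their mean log2 level ranged between 14.59 and 14.86 in male TAC and 14.86 and 15.10 in male sham arrays, and between 14.47 and 14.72 in female TAC and 14.90 and 15.01 in female sham arrays. Of 8 fibroblast markers 4 rose, with a median of 0.78, and their mean level ranged between 10.92 and 11.55 in male TAC and 9.999 and 10.17 in male sham arrays, and between 10.79 and 11.29 in female TAC and 10.32 and 10.55 in female sham arrays. Of 8 macrophage markers 5 rose, with a median of 0.39 and with Csf1r, the receptor for colony-stimulating factor 1, at 0.58 on its leading probe set and -0.03 and 0.04 on the others. Of 8 pericyte and smooth muscle markers 2 rose, Pdgfrb by 0.58 and Tagln by 0.54, around a median of -0.09, and a second Pdgfrb probe set gave -0.11 (adjusted p = 0.775). In females 0 of these 8 rose and 1 fell, against 6.46% of all probe sets higher and 8.6% lower. The fall was that of Myh11, the smooth muscle myosin heavy chain, by 1.34 (adjusted p = 0.0401), whose average was -0.74 (adjusted p = 0.0737). Rgs5, a pericyte marker, had -0.20 on its leading probe set (adjusted p = 0.133) and fell on 2 of 3 others, the lowest at -1.63 (adjusted p = 2.90e-07). Of 3 lymphatic markers Pdpn rose by 0.85 and Prox1 fell by 0.70, around a median of 0.16, and of 4 platelet and leukocyte markers, with a median of -0.00, none passed. The part of these cell types in the values of the 10 vascular genes was not tested.

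Between the sexes none of the 9 genes differed past the test. In the TAC groups 0.0663% of probe sets passed for female against male, in the sham groups 0.309%, and for the female response minus the male response 0%, with 0 of 13576 by limma and 897 at an unadjusted p below 0.05. Kdr was the gene with the largest difference in sham hearts on a leading probe set, 1312.7 ± 174.9 in female sham and 996 ± 142 in male sham mice (SD, n = 4 each), a log2 difference of 0.39 ± 0.17 (adjusted p = 0.415). In the TAC groups Kdr had 1226 ± 227 in females and 1076 ± 272 in males, a difference of 0.20 ± 0.17 (adjusted p = 0.897). Flt1, on its leading probe set, had 0.28 ± 0.17 for female minus male after TAC (adjusted p = 0.811) and -0.27 ± 0.17 after sham surgery (adjusted p = 0.618). Vegfa had 0.18 ± 0.19 after TAC (adjusted p = 0.922) and 0.15 ± 0.19 after sham surgery (adjusted p = 0.838), with 95% intervals of -0.22 to 0.57 and -0.25 to 0.54.

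The genes whose log2 level over the 16 arrays was most like that of Hif1a, the 1 gene called on its leading probe set, were Grk5, a kinase of G protein-coupled receptors, with Pearson's r of 0.91, Nars, the asparaginyl-tRNA synthetase, with 0.88, and Dpysl3 with 0.85, of 8271 genes compared. With the group means removed, r was 0.84, 0.80 and 0.77. Among the 10 genes themselves, the most opposed pair was Hif1a and Apln, with r of -0.73 over the 16 arrays and -0.65 within groups, and the most alike over the 16 arrays was Pecam1 and Apln, with 0.68. Within groups Vegfa and Flt1 had 0.67 and Pecam1 and Apln 0.62. Male TAC replicate 5, for example, had 2088.4 for Hif1a, the highest of its group, and 334.4 for Apln, the lowest. The same array had 512.3 for Pecam1, and its Pecam1 and Apln signals were each the lowest of the 16 arrays. The r of Pecam1 and Apln may therefore rest in part on this array, and r without it was not computed. These correlations are descriptions over arrays that share their scaling and groups.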

How the data were processed

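Total RNA of the left ventricle was labelled from an oligo(dT) primer and hybridised to 16 Affymetrix arrays, 1 mouse each, per the labels. The series text names the array RAE 430A, while the probe sets carry names of the mouse 430A array. In the deposited table, signal intensities of 22690 probe sets had been computed by the authors with GCOS, per the submitters' processing notes, whose version and settings are not given in the sources used here. The values are linear and were already scaled to a common trimmed mean, as tested on them, and this scaling was kept. Detection calls and background were not used here, and precision is limited by the number of arrays.

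The 64 control probe sets and the 40% of the others with the lowest mean log2(signal + 16) were left out, which left 13576 probe sets for 8272 genes. Groups came from the labels. The sample titles number all TAC arrays before all sham arrays, and the labels used here do not say whether arrays were processed in that order. If they were, order and operation cannot be told apart. Limma 3.58.1 in R 4.3.3 fitted 4 group means over all 16 arrays with an intensity trend, with 2-sided tests and Benjamini-Hochberg adjustment over 13576 probe sets at 0.05. Adjusted p-values of genes are from that limma fit, except those of probe sets below the limit, which come from the same model on all 22626 probe sets. Fitted folds are on the log2(signal + 16) scale, which understates changes of dim probe sets. Each gene is represented by its brightest probe set over the 16 arrays unless others are named. The fit was tested on simulated data.

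The named genes are the 10 vascular genes, up to 4 genes of each of 14 lists with the smallest p in the averaged comparison, and the 3 genes most like a called one. The 10 genes and the lists were chosen with earlier results of these data known. Promoters and symbols came from RefSeq GRCm38.p6 and the platform annotation, where 20380 probe sets had exactly 1 symbol, 691 several and 1555 none. Alternatives were quantile normalization, median centring, other added constants and filters, no trend, array weights, 1 probe set per gene, replicate blocks, each array left out, the groups compared alone, and the 18S signal or the Gapdh ratio as a covariate. Running them for the genes of the lists and for the dim probe sets was added after the data were seen.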

Additional observations from a re-analysis of the deposited data

Results flagged for a closer look

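In 4 of 68 probe set and group combinations of the 10 genes, 1 array lay apart from the other 3 by more of the group's range than Dixon's 95% limit for 4 samples allows. Chance gives about 1 in 20. Flt1 probe set 1451756_at had 1079.2 in male sham replicate 2, with 784.0 to 827.1 in the others. Cdh5 probe set 1433956_at had 899.7 in female TAC replicate 3, with 1259.9 to 1279.2 in the others, and Cdh5 probe set 1422047_at had 61.0 in male sham replicate 4, with 149.9 to 177.2 in the others. Hif1a probe set 1416035_at had 888.5 in female TAC replicate 5, with 456.1 to 508.8 in the others. None of these probe sets was called in a comparison.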

How the results depend on the processing

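Of the 9 tested genes, 1 passed in males. That count was 0 with no filter on low signals, with no intensity trend, with the replicate block or with the Gapdh ratio as a covariate, 2 with the 18S signal (Apln at -1.28 and Cdh5 at -0.79, without Hif1a), and 0 to 2 with single arrays left out. In females the count of 0 became 1 with no filter (Angpt1). Averaged over the sexes the count of 1 was 2 with no filter (Hif1a and Angpt1), 2 with the dimmest 60% left out (Hif1a and Pecam1), 0 with the replicate block (Hif1a 0.40, adjusted p = 0.0644), 0 with the Gapdh ratio, 4 with the 18S signal (Hif1a, Pecam1 at -0.48, Cdh5 at -0.58 and Apln at -0.88) and 1 to 3 with single arrays left out. Both covariates differ between TAC and sham, so their part and that of the operation cannot be fully told apart. Over all probe sets, 1917 passed with the 18S signal and 640 with the Gapdh ratio, against 3890 without them, and in males 1000 and 398, against 2422. In females 498 passed with the Gapdh ratio, against 2045. The call for Vwf turned to -0.40 (adjusted p = 0.686) with the Gapdh ratio, and no other result that passed the test, in the main setting or in the alternative, changed sign. Angpt1 and Hif1a 1448183_a_at kept their averaged calls except with the 18S signal (-1.14 and -1.37) or the Gapdh ratio (-1.59 and -2.18). The comparisons of the sexes and of their responses gave 0 of 9 in every setting run. After each probe set's own level was taken out, same-numbered pairs of arrays had correlations of -0.0345 to 0.115 (median 0.011). Other pairs had -0.125 to 0.128 (median -0.006). These ranges overlap, and they cannot settle whether replicate numbers pair the arrays. Signals near the limit of 130.8 carry the least information, and the cause of the changes in call was not tested.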
